A study of Homo sapiens with 6 samples.

Results

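NF-kB is a family of transcription factors that drives inflammatory genes, and this account follows 43 genes of its pathway and output in the human esophageal carcinoma line TE-10, which is of squamous origin. The genes were chosen by name, with earlier results of these data known. They are the Rel proteins other than REL, their inhibitors and the cytokines, chemokines and feedback proteins that Rel proteins are known to control. Surface proteins and an inducible enzyme complete the list. All 43 were found among the 18249 rows of the deposited expression table. RNA-seq was made from 1 control library of cells with normal METTL3 and from 2 libraries in which short hairpin RNAs stably lowered METTL3, the methyltransferase behind most N6-methyladenosine (m6A) in mRNA. The titles number the hairpins 1 and 2, so each hairpin has 1 library, knockdown 1 and knockdown 2. Separately, methylated RNA was immunoprecipitated from TE-10 cells with normal METTL3 in 2 libraries, beside 1 input library, and a single list of 15940 m6A peaks was deposited. All libraries are polyadenylated RNA of the same line grown in serum, and no cytokine or other inflammatory stimulus is named in the labels. Whether the knockdown cells are clones or pools, and whether libraries came from separate cultures, is not stated. The p-values rest on the spread between the 2 knockdown libraries, which carry different hairpins. Hairpin and technical differences cannot be told apart in that spread. For each gene limma moderated the spread toward a trend over all tested genes. Its standard errors (SE) and p-values therefore do not measure a gene's own spread alone.

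In resting cells the NF-kB dimers are held in the cytoplasm by IkB proteins. Signals from the receptors for tumor necrosis factor, interleukin 1 and microbial products activate the IKK kinase complex, which marks IkB for destruction and lets the dimers reach kappa-B sites in promoters. Among the genes they switch on are their own inhibitors, such as NFKBIA and TNFAIP3, and in squamous epithelium the chemokines that call neutrophils and lymphocytes to the tissue.

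Kappa-B words near the transcript start are shown first because the members whose values differed most between libraries include neutrophil chemokines of chromosome 4, among which CXCL1, CXCL2 and CXCL3 have alike sequences there. RefSeq promoter windows (GRCh38.p14, 250 bases before to 50 after the start) were found for 34 of the 43 members, and not for CXCL16, CCL2, CCL5, IL18, LIF, CSF1, CSF3, RELB and NFKBIE. Each stretch below runs from 100 to 41 bases before the start, 5′ to 3′ on the gene's strand. Capitals mark matches, on either strand, to GGNNTTTCC, a loose kappa-B word that contains the stricter word GGAATTTCC.
CXCL1 (chr4:73869293-73869352, + strand): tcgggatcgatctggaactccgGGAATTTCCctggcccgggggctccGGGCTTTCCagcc
CXCL2 (chr4:74099236-74099295, - strand): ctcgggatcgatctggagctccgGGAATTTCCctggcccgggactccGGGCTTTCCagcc
CXCL3 (chr4:74038730-74038789, - strand): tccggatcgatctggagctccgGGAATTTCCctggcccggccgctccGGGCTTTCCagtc
CXCL5 (chr4:73998718-73998777, - strand): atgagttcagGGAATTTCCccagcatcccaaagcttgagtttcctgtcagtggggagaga
CXCL8 (chr4:73740469-73740528, + strand): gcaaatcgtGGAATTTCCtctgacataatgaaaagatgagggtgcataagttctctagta
CCL20 (chr2:227813742-227813801, + strand): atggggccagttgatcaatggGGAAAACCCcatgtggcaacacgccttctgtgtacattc
IL6 (chr7:22727100-22727159, + strand): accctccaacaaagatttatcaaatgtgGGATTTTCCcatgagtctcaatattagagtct
TNFAIP3 (chr6:137867159-137867218, + strand): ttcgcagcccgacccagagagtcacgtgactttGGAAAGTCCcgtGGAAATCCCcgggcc
NFKBIA (chr14:35404790-35404849, - strand): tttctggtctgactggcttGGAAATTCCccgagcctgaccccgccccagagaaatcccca

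The strict word stood in all 5 of the neutrophil chemokine promoters, and in CXCL1, CXCL2 and CXCL3 a second match to the loose word followed it. Position by position, CXCL1 and CXCL3 were identical at 55 of 60 bases of the printed stretch, CXCL1 and CXCL2 at 35, CXCL1 and CXCL8 at 17 and CXCL1 and CXCL5 at 13. With a shift of up to 2 bases but no gap allowed, CXCL1 and CXCL2 were identical at 47 and CXCL1 and CXCL5 at 17, and the other pairs were as before. The 2 words began 78 and 53 bases before the start in CXCL1, and 77 and 53 in CXCL2. No single shift aligns both, so these counts understate the likeness of CXCL1 and CXCL2. Over all members with a window, 13 of 34 genes (38.2%) held the strict word in at least 1 window, where 0.56% of 27305 genes did. By window the shares were 25.5% of 51 for members and 0.461% of 35116 in all. The loose word stood in 23 of 34 members (67.6%) and in 7.61% of all genes (6.26% of all windows). A match is a description of the letters and not of binding, and the members are a list of known NF-kB genes. Tested members with the loose word had a median log2 difference of -0.14 in knockdown 1 and -0.59 in knockdown 2 (n = 17). Those without it were at -0.05 and -0.23 (n = 5). For the strict word the medians were -0.13 and -0.76 with it (n = 9), and -0.20 and -0.36 without it (n = 13). In knockdown 1 the members without the strict word were thus the lower ones. Neither split was tested.

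The libraries were first checked against their labels. METTL3 was at 20.81 in control cells, 8.35 with hairpin 1 and 4.99 with hairpin 2. Knockdown 2 stood apart from the other libraries: CDKN2A, a cell cycle inhibitor, was listed at 0.04 in the control, at 0 in knockdown 1 and at 144.68 in knockdown 2, and VIM at 87.02, 88.05 and 311.17. All 7 squamous markers were present at 7.93 or more in every library, and their summed value was 3352.39, 3295.37 and 1993.71, lower in knockdown 2 for each of the 7. Of 7 leukocyte markers 6 were under 1 in every library, the summed value being 19.98, 9.04 and 11.78, most of it CD68, a lysosomal protein. Fibroblast markers summed to 3.42, 3.70 and 3.75 with THY1 at 0, and endothelial markers to 1.21, 0.37 and 0.35. A list of 7 markers of kidney and HeLa-type lines, CDKN2A among them, summed to 13.86, 16.4 and 168.49, and to 13.82, 16.4 and 23.81 without CDKN2A. In knockdown 2, 2 of the 7 were below the control, PAX8 (4.11, 3.51 and 3.66) and GATA3 (3.30, 5.23 and 2.32). HOXD13 (6.38, 7.64 and 16.07) was above it there. PAX2 (0.01, 0 and 0.78), WT1 (0.02, 0.02 and 0.69) and LHX1 (0, 0 and 0.29) were under 1 in every library. Each of these was highest in knockdown 2. What these values come from was not tested. In bulk RNA, fewer cells of a kind and less RNA per cell cannot be told apart, so results resting on knockdown 2 are given beside knockdown 1.

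Values are the deposited expression values, whose unit is not stated, so a gene's level is compared only with its own level in other libraries. A gene was tested if it reached 1 in at least 1 library, which 30 of the 43 members did, among 12375 genes. IL11 passed that filter only through the control and IL6 only through knockdown 1. The other 13 members were under 1 in all 3 libraries: CXCL5, CXCL10, CXCL11, IL1A, IL1B, IL36G, CSF2, CSF3, TNF, BIRC3, TRAF1, ICAM1 and PTGS2. Inflammatory genes such as TNF (0.14, 0.20 and 0.06 in the control, knockdown 1 and knockdown 2) and IL1B (0.38, 0.32 and 0.16) were therefore under 1 with or without knockdown. PTGS2, the inducible prostaglandin synthase, was at 0.77, 0.56 and 0.18.

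All 9 tested chemokines and all 3 tested feedback genes were at lower values than the control in knockdown 2, where 6147 of all 12375 tested genes were lower. The chemokines CXCL1 (61.8% below) and CCL20 (73.6% below) and the feedback inhibitor TNFAIP3 (44.8% below) were among these members. In knockdown 1 the same 3 genes were 17.0%, 25.7% and 17.0% below, and CXCL8 was about equally low in both. No member passed limma's test: 0 of 30 had an adjusted p under 0.05, as did 0 of all 12375 genes (0%), and the adjusted p was 1 for each member. As there is a single control, the error was estimated from the knockdown pair and moderated over all tested genes. The lack of calls does not show that values were alike. An unadjusted p under 0.05 was found for 1 of the 30, CXCL8, and for 1.31% of all genes. Both knockdown libraries lay below the control for 17 of the 30 tested members, against 30.4% of all tested genes, or for 16 of 29 without IL11, and above it for 2, NFKB1 and CSF1, against 28.0%. Over all 43 members without the filter, 21 were below in both libraries and 2 above, where 27.2% and 26.6% of all 18249 genes were. The median log2 difference of the tested members was -0.12 in knockdown 1 and -0.42 in knockdown 2, where the medians of all tested genes were -0.01 and 0.00. Without the filter the members' medians were -0.04 and -0.23, and with quantile normalization -0.07 and -0.51. The knockdowns share the control, so their differences are not independent of each other. Because the members were chosen with earlier results known, these shares and medians are descriptions and were not tested.

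**Figure D1:**
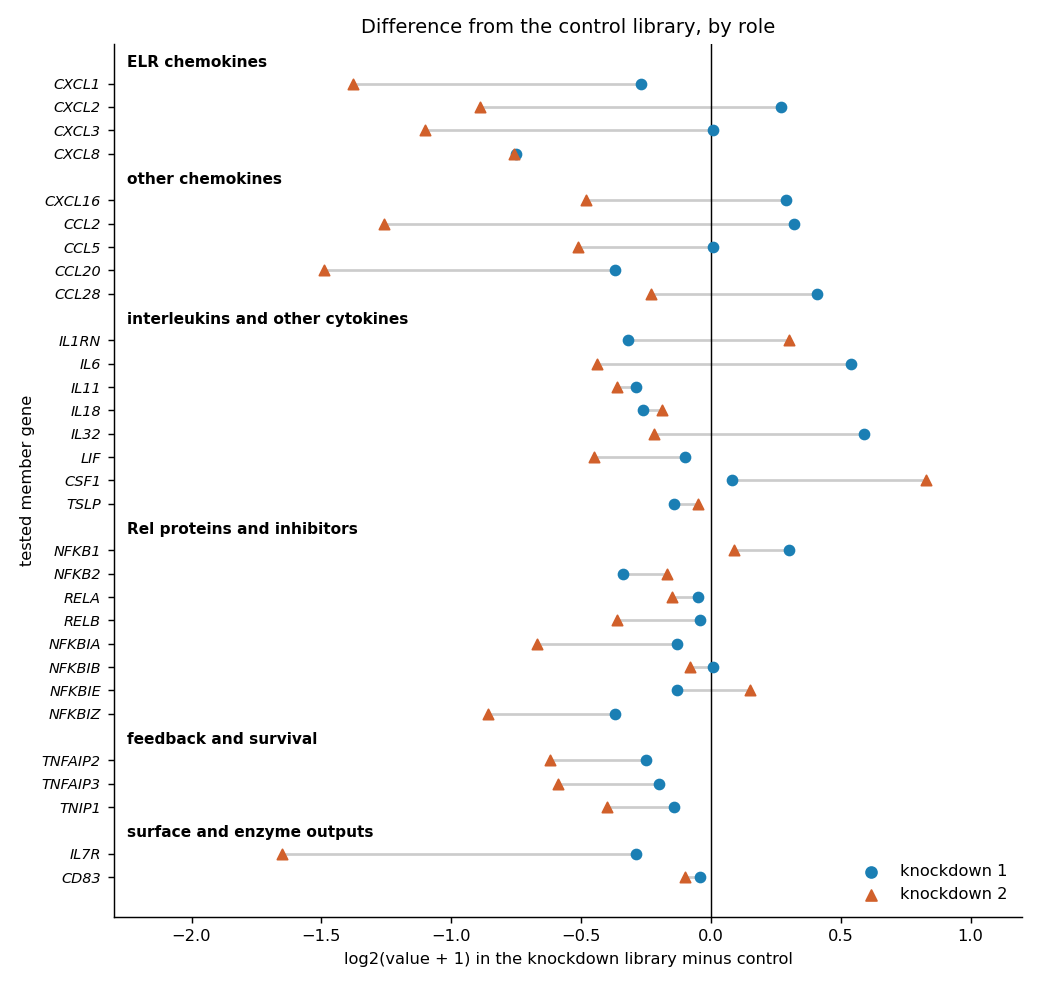
Difference of each tested member from the control on the log2(value + 1) scale, for knockdown 1 (circles) and knockdown 2 (triangles), with 1 library per point and genes grouped by role. Knockdown 2 lies to the left of 0 for 26 of the 30 members and knockdown 1 for 19, and the points of CXCL8 coincide.

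The neutrophil chemokines bind CXCR2 and share the ELR motif before their first cysteines. CXCL1 was at 646.86 in control cells, 536.9 with hairpin 1 and 247.12 with hairpin 2. It was thus 17.0% below the control in knockdown 1 and 61.8% below in knockdown 2, a log2 difference of -0.83 (SE 0.477) over both libraries. CXCL3 was at 7.16, 7.19 and 2.81, and CXCL2 at 4.70, 5.86 and 2.07. For these 2 genes knockdown 1 was level with or above the control, and only knockdown 2 was below it. The values of CXCL1, CXCL2 and CXCL3 may be uncertain in their split, since the genes are closely related copies and how shared reads were counted is not stated.

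CXCL8 acts on both CXCR1 and CXCR2. It was at 81.52 in control cells, 47.92 with hairpin 1 and 47.75 with hairpin 2, about equally low in both hairpins. Its log2 difference was -0.76 (SE 0.243), with limma's adjusted p of 1 and unadjusted p of 0.0209, the smallest unadjusted value among the members. Knockdown 2 minus knockdown 1 was -0.01 for CXCL8, against -1.12 for CXCL1, -1.16 for CXCL2 and -1.10 for CXCL3, all on the log2(value + 1) scale. The SE of CXCL8 thus came largely from the trend over all tested genes.

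The other chemokines split by library. CCL20, which draws CCR6-bearing dendritic and T cells to mucosa, was at 6.93 in control cells, 5.15 with hairpin 1 and 1.83 with hairpin 2, the only one of 5 tested whose groups did not overlap. CCL2, the monocyte attractant, was at 1.54, 2.16 and 0.06. CCL5, a T cell attractant, was at 17.66, 17.77 and 12.08. The membrane-bound CXCL16 was at 18.36, 22.66 and 12.89, and the mucosal CCL28 at 1.86, 2.81 and 1.44. All 5 were below the control in knockdown 2, and 4 of them were above it in knockdown 1. Their median log2 differences were 0.29 in knockdown 1 and -0.51 in knockdown 2, so the direction rests on knockdown 2.

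At least 2-fold lower values on the log2(value + 1) scale were found for 5 members in knockdown 2 (CXCL1, CXCL3, CCL2, CCL20 and IL7R), against 0.978% of all tested genes. In knockdown 1 there were 0, against 0.404%. Values at least 2-fold higher were found for 0 members in either library. Among all tested genes there were 451 such genes in knockdown 2 and 30 in knockdown 1. The squamous markers were lower in the same library, at a median of -0.68 for hairpin 2 and -0.15 for hairpin 1. Their part in the chemokine values was not tested.

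**Figure D2:**
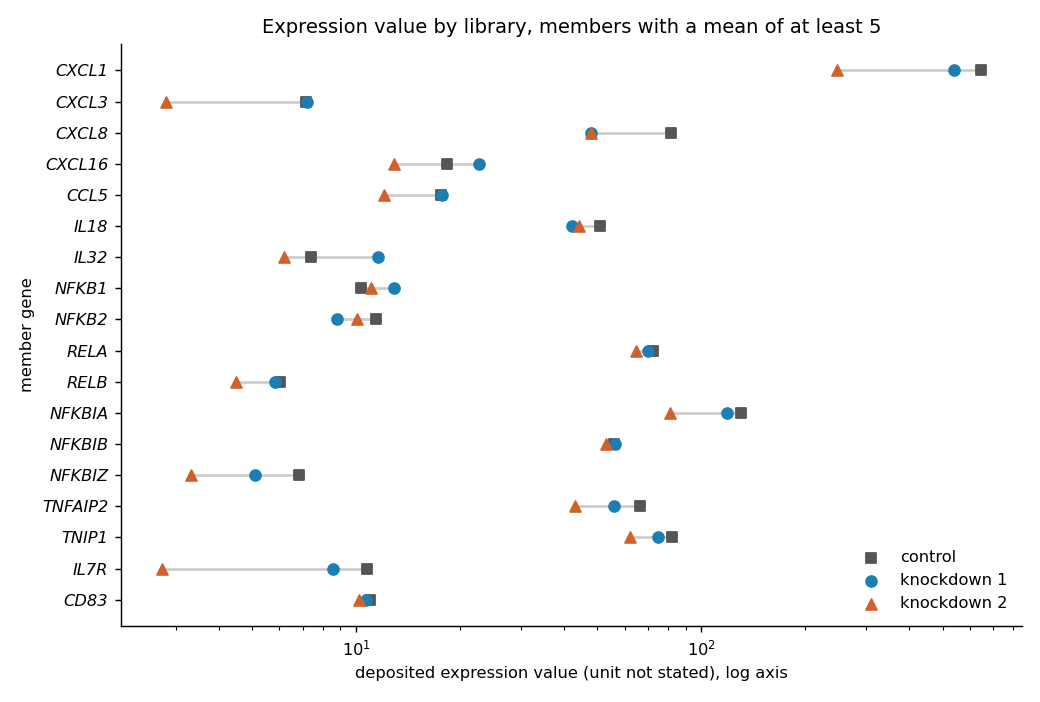
Deposited expression value (log axis) of the 18 members with a mean of at least 5 over the 3 libraries, with the control as squares, knockdown 1 as circles and knockdown 2 as triangles. CXCL1, CXCL3 and IL7R have knockdown 2 far below both other libraries, whereas RELA, NFKBIB and CD83 have all 3 libraries close together.

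Interleukins and other secreted cytokines had no common direction. IL18, an interleukin 1 family cytokine stored by epithelial cells, was at 50.77 in control cells, 42.13 with hairpin 1 and 44.27 with hairpin 2, slightly below the control in both. IL32, a cytokine without a mouse counterpart, was at 7.38, 11.61 and 6.20, above the control in knockdown 1 only. CSF1, the growth factor of macrophages, was at 1.84, 2.01 and 4.04 and was the tested member furthest above the control (log2 difference 0.46, SE 0.415). TSLP, an epithelial alarmin, was at 3.93, 3.47 and 3.77, and LIF, which signals through gp130, at 2.61, 2.36 and 1.65. Other genes stood close to the filter: IL1RN, the interleukin 1 receptor antagonist, at 1.10, 0.68 and 1.58, IL6 at 0.83, 1.66 and 0.35, and IL11 at 1.34, 0.91 and 0.82. Of the 8 tested, 4 were below the control in both libraries and 1 above, against 30.4% and 28.0% of all tested genes, and IL11 was 1 of the 4. Their median log2 difference was -0.12 in knockdown 1 and -0.21 in knockdown 2.

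The Rel proteins among the members, which leave out REL, differed from the control in both directions. RELA, the p65 subunit, was at 72.27 in control cells, 69.98 with hairpin 1 and 64.83 with hairpin 2. NFKB1, which encodes p105 and p50, was at 10.30, 12.87 and 11.02, above the control in both libraries. NFKB2, the precursor of p52, was at 11.41, 8.80 and 10.04, and its partner RELB at 6.02, 5.81 and 4.48. The values furthest from the control were NFKB1 and NFKB2 in knockdown 1 (125% and 77.1% of it) and RELB in knockdown 2 (74.4%), while RELA was at 96.8% and 89.7%. Over both libraries the log2 differences of these 4 ran from -0.25 (SE 0.242) to 0.19 (SE 0.245), each smaller than or close to its standard error.

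The inhibitors divided by gene. NFKBIA, the IkB alpha protein that dimers induce to shut themselves off, was at 129.89 in control cells, 118.59 with hairpin 1 and 81.11 with hairpin 2, or 8.70% and 37.6% below. NFKBIZ, a nuclear IkB protein that promotes transcription of secondary targets, was at 6.85, 5.09 and 3.33, with a log2 difference of -0.61 (SE 0.312). NFKBIB, the IkB beta protein, was at 55.89, 56.15 and 52.97, and NFKBIE, IkB epsilon, at 4.80, 4.30 and 5.43. NFKBIA and NFKBIZ had both knockdown libraries below the control, whereas for NFKBIB and NFKBIE the groups overlapped.

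The feedback genes were below the control in both libraries, by more in knockdown 2. TNFAIP2, a tumor necrosis factor induced gene, was at 66.50 in control cells, 55.66 with hairpin 1 and 42.90 with hairpin 2. TNIP1, a ubiquitin-binding partner of TNFAIP3, was at 82.38, 74.85 and 62.30. TNFAIP3, the ubiquitin-editing enzyme A20, was at 3.06, 2.54 and 1.69. Their log2 differences were -0.44 (SE 0.275), -0.27 (SE 0.262) and -0.40 (SE 0.355), and none passed limma's test. The survival genes BIRC3 (0.83, 0.88 and 0.54) and TRAF1 (0.24, 0.23 and 0.30) were too low to be tested.

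Among surface and enzyme outputs, IL7R, the alpha chain shared by the receptors for interleukin 7 and TSLP, was at 10.75 in control cells, 8.59 with hairpin 1 and 2.74 with hairpin 2. This was 20.1% and 74.5% below the control, the lowest log2 difference of any tested member (-0.97, SE 0.541). CD83, a surface glycoprotein of activated cells, was at 10.99, 10.66 and 10.20. ICAM1, the leukocyte adhesion molecule, was under 1 throughout at 0.54, 0.55 and 0.32.

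The machinery around the members was followed in a list of 65 other pathway genes, of which 48 were tested. None passed limma's adjusted test, 25 were below the control in both knockdown libraries and 5 above, against 30.4% and 28.0% of all tested genes, and the median log2 difference was -0.13 (-0.07 in knockdown 1 and -0.19 in knockdown 2). Of the 16 kinases and scaffolds, 11 were below the control in both libraries and 0 above, at a median of -0.05 for hairpin 1 and -0.17 for hairpin 2. The 5 lowest of the list with a mean of at least 5 were IL1RAP, OSMR, TRADD, CD40 and TRAF3. IL1RAP, the signalling subunit of the interleukin 1 receptor, was at 28.95 in control cells, 17.85 with hairpin 1 and 11.67 with hairpin 2 (log2 difference -0.95, SE 0.310), with limma's adjusted p of 1. OSMR, the oncostatin M receptor, was at 38.46, 21.00 and 26.38, low in both hairpins as CXCL8 was. The adaptor TRADD was at 32.61, 25.03 and 23.37, the receptor CD40 at 39.74, 35.78 and 24.52, and the adaptor TRAF3 at 16.79, 12.69 and 12.31. The 5 highest were BIRC2 (7.39, 9.29 and 8.69), SHARPIN (95.25, 123.01 and 87.95), COMMD1 (28.89, 35.58 and 26.73), RIPK2 (11.95, 10.91 and 14.89) and IKBKG (15.58, 19.34 and 13.43), and only for BIRC2 were both libraries above the control. Of the chemokine receptors in the list, CXCR2 (0.22, 0.15 and 0.37), CCR6 (0.13, 0.29 and 0.25), CCR10 (0.22, 0.54 and 0.47) and CXCR6 (0.02, 0.02 and 0.06) were under 1 in every library. No values were found under the names CXCR1 and CXCR3.

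**Figure D3:**
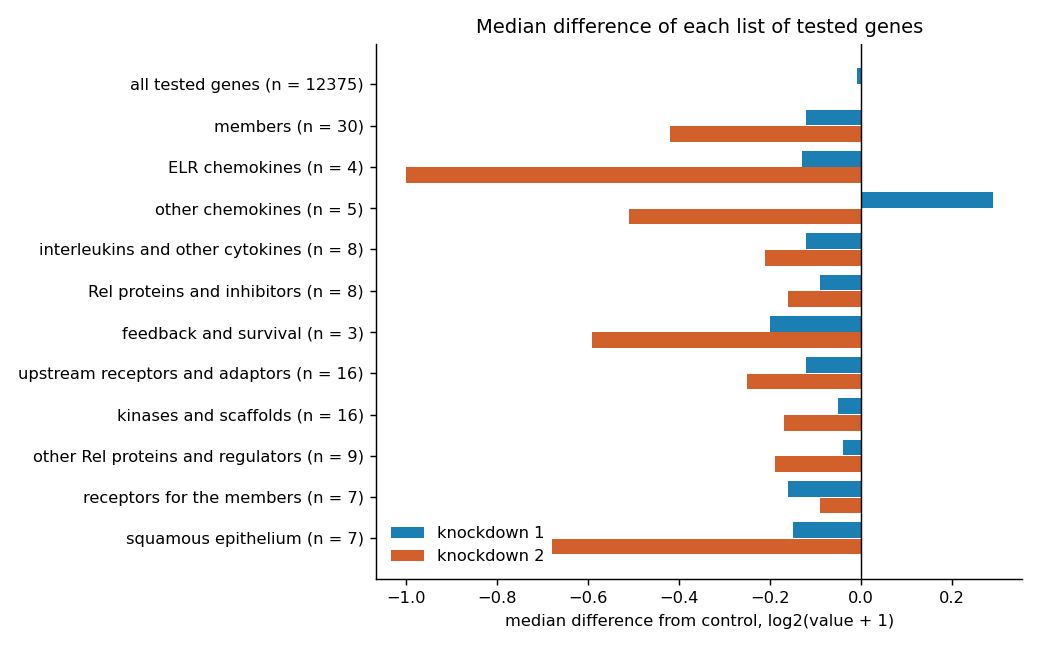
Median difference from the control on the log2(value + 1) scale in knockdown 1 and knockdown 2, for all tested genes, the members, 5 role groups of members, 4 lists of other pathway genes and the squamous markers, with n the tested genes of each. The ELR chemokines sit at a median of -1.0 for hairpin 2 and -0.13 for hairpin 1, and all tested genes lie at 0.00 and -0.01.

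The m6A peaks came from cells with normal METTL3 and so describe the marks before knockdown. Peak rows were found for 16 of the 43 members, 25 rows in all, CXCL8 being written there under its older name IL8. All 16 had at least 1 row in an exon or untranslated region. Of the tested members 13 of 30 had such a peak, close to the 46.0% of all tested genes. Of the 13 members under 1 in every library 3 had one, against 8.95% of all such genes. By class, 11 of the 25 rows lay in a 3′ UTR (44.0%, against 21.5% of all peaks), 6 in other exons, 3 in a 5′ UTR, 3 in introns, 1 upstream and 1 downstream. Rows of 1 gene share its transcript, and no strength was given for any peak.

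Peaks lay at opposite ends of the transcript in different members. CXCL1 and CXCL8 had a single row each, classed as 5′ UTR (chr4:74735032-74735327 and chr4:74606196-74606406). Their midpoints lay 71 and 79 bases past the annotated start. At 295 and 210 bases long, both peaks reached across it. TNFAIP2 had a 5′ row of 226 bases, with its midpoint at 31 bases, which also reached across the start, and a 3′ UTR row. CXCL3 had a row in an exon, and CXCL2, CCL20 and the remaining chemokines had none. Of the 5 feedback and survival genes, TNFAIP2, TNFAIP3, TNIP1 and TRAF1 had a 3′ UTR row. TNFAIP3 was marked there by a row of 989 bases (chr6:138202104-138203093) besides one of 753 in an exon (chr6:138199638-138200391), and TNIP1 by one of 374 bases besides an intronic row. Among cytokines, the 3′ UTR row of CSF1 was 998 bases long, that of LIF 378 and that of IL1RN 235.

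Positions are printed as the peak list has them. The submitters' processing notes name hg38, but of 23 exon, UTR or intron rows of members only 3 overlap the GRCh38 span of the gene they name, so hg38 was not assumed and no sequence was read from the peaks.

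Of the 8 Rel and IkB genes 2 had an exon or UTR peak, against 46.0% of all tested genes. RELA had 1 row in an exon (chr11:65421790-65422065) and NFKBIE 1 in the 3′ UTR (chr6:44226418-44226964), whereas NFKB1, NFKB2, RELB, NFKBIA, NFKBIB and NFKBIZ had none. IL7R had 3 rows within a short stretch at its 3′ end, classed as intron, exon and downstream. Tested members with an exon or UTR peak had a median log2 difference of -0.14 in knockdown 1 and -0.45 in knockdown 2 (n = 13), and those without 0.01 and -0.36 (n = 17). For all tested genes the medians were -0.02 and -0.03 with a peak, and -0.01 and 0.03 without. The difference between members with and without a peak was not tested.

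**Figure D4:**
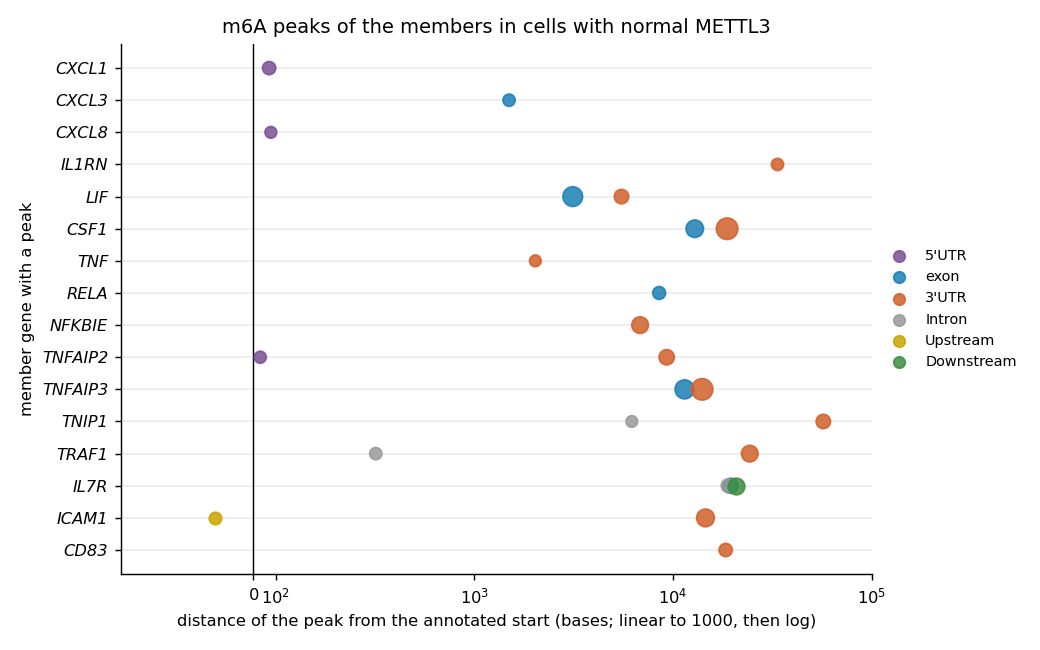
Distance of the midpoint of each m6A peak from the annotated transcript start, for the 16 members with a peak. The axis is in bases, linear near the start and logarithmic farther out. Colours give the location class and larger points longer peaks. CXCL1, CXCL8 and TNFAIP2 have a peak with its midpoint within 100 bases of the start, and 11 members have one in the 3′ UTR.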

How the data were processed

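Per the submitters' processing notes, all 6 samples went through TopHat2 and HTSeq, and the immunoprecipitation also through MACS2. The sources used here give no versions. The deposited RNA-seq table holds an expression signal with 2 decimals whose unit the authors do not state. Columns sum to 608291, 617840.4 and 627152. Each hundredth from 0.01 to 0.30 occurs in every column, so no common read step was found and depth is unknown. The deposited peak list gives positions, location classes and distances with no score.

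Values were transformed to log2(value + 1), genes reaching 1 in at least 1 library were kept, and knockdown (n = 2) was compared with control (n = 1) by limma 3.58.1 (R 4.3.3) with a mean-variance trend and Benjamini-Hochberg adjustment at 0.05 over all 12375 genes, on 1 residual degree of freedom. Variances were moderated, so the p-values also drew on the spread of the other tested genes. The procedure was also run on simulated data with the same spread for every gene. These data differ in that respect, so the lack of calls was not judged from the simulation. Fold changes on this scale understate those of low genes. Rows whose symbol had become a date (25) were left unnamed. Older symbols were matched through RefSeq synonyms. Members and lists were chosen with earlier results of these data known. The text gives all members, library by library where the mean over the libraries was at least 5, and of the other pathway genes the 5 lowest and 5 highest differences at that mean. Marker lists of squamous, leukocyte, fibroblast, endothelial and kidney or HeLa-type cells were read as summed values. The unit was not counts, so no count test was used. Python 3.11.15, numpy 2.4.6, pandas 2.3.3 and matplotlib 3.10.9 were used.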

Additional observations from a re-analysis of the deposited data

How the results depend on the processing

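Alternatives were a pseudocount of 0.1, no filter on low values, a mean of at least 5, median-of-ratios scaling, equal column sums, quantile normalization, no trend, and leaving out either knockdown library. None of the refits called a member or any gene, and 0 members were at least 2-fold lower in knockdown 1 in each. The median over tested members ran from -0.28 to -0.11 over the refits (-0.13 to -0.04 in knockdown 1 and -0.53 to -0.23 in knockdown 2), and was -0.42 without knockdown 1 and -0.12 without knockdown 2, where no test is possible. Members below the control were 26 without knockdown 1 and 19 without knockdown 2, and those above it 4 and 11. In the same order, 6147 and 6445 of all 12375 tested genes were below the control. With IL11 left out, an alternative chosen after seeing the data, 16 members lay below the control in both libraries. That count was 15 with quantile normalization, 20 with equal column sums and 12 of 18 with a mean of at least 5. Of all genes, 31.1%, 34.7% and 31.3% were below in both under these settings. Members above the control in both libraries were 1 with a mean of at least 5. Members at least 2-fold lower in knockdown 2 were 8 with a pseudocount of 0.1 and 3 with a mean of at least 5. Members with a peak were 4 when at least 2 exon or UTR regions were asked for, 11 with 3′ UTR peaks only, 15 with exact symbols only, and 16 with every location class or with overlapping rows merged.

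Among single members, 195 of 198 refitted values kept their sign. IL6 was at -0.06 with a pseudocount of 0.1 and -0.12 with quantile normalization, and NFKBIE at -0.02 with equal column sums. Leaving out a library turned the sign of 11 of 60 values. Without knockdown 1 and without knockdown 2, in this order, these members were at -0.23 and 0.41 (CCL28), 0.30 and -0.32 (IL1RN), -0.44 and 0.54 (IL6), -0.22 and 0.59 (IL32), -0.89 and 0.27 (CXCL2), -1.10 and 0.01 (CXCL3), -0.48 and 0.29 (CXCL16), -1.26 and 0.32 (CCL2), -0.51 and 0.01 (CCL5), -0.08 and 0.01 (NFKBIB), and 0.15 and -0.13 (NFKBIE). No paired analysis was possible because the control carries no replicate number. The single control could not be left out, and no library depth is known, so no counting error is given for any value.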

Other observations

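Peaks were also listed for members under 1 in every expression library. TNF, TRAF1 and ICAM1 each had a 3′ UTR row although their control values were 0.14, 0.24 and 0.54. These were 3 of the 13 members under 1 in all 3 libraries, where 8.95% of all 5874 such genes had an exon or UTR peak. The TNF row was at chr6:31545277-31545481, that of TRAF1 at chr9:123666850-123667396 and that of ICAM1 at chr19:10395771-10396411. The immunoprecipitation input has no values in the expression table used here, so the level of these transcripts in those cells was not tested.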
